A study of Mus musculus with 15 samples.

Results

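The genes described here are 9 genes that regulate, carry, store and export iron in the liver, namely Hamp, Hamp2, Bmp6, Trf, Tfr2, Tfrc, Ftl1, Fth1 and Slc40a1. They were taken by their gene symbols from the 16809 genes of the deposited table, and all 9 were found. After 6 weeks of feeding, RNA was sequenced from the livers of wild-type mice in 5 groups with 3 libraries each, 15 in all. Control mice ate standard feed, and model mice ate a high-fat diet made of standard feed (78.8%), lard (10%), egg yolk powder (10%), cholesterol (1%) and sodium cholate (0.2%). The flavonoid groups also ate high-fat feed. Its composition is not in the labels and was assumed to match the model's. They were gavaged daily with quercetin (200 mg/kg), myricetin (75 mg/kg) or kaempferol (100 mg/kg). These flavonols differ in the number of hydroxyl groups on their B ring. The labels state neither sex, age, strain, time of day at collection nor whether control and model mice were gavaged, nor whether each library is a different mouse. P-values therefore measure the spread between libraries, which may be technical. In bulk liver, fewer cells of a type and less RNA per cell cannot be told apart.

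Ftl1, the ferritin light chain gene, was the only 1 of the 9 genes that passed the test in the model, where it fell to 0.704 of its control level and 4.46% of all genes tested passed. That call was lost when any 1 of the 6 control and model libraries was left out. Hamp2 also lay below every control library in the model (0.437 of the control, 95% interval 0.162 to 1.18) but did not pass. Across the 4 high-fat groups together, Ftl1 and Trf, the gene of the plasma iron carrier transferrin, were lower than in the control, where 16.3% of all genes passed. Hamp, the gene of the hormone hepcidin, passed the test in no comparison. Hamp2, its neighbouring copy, was higher in every quercetin library than in any model library and did not pass there either. Around these genes, the diet groups had much less RNA of Id1 and Smad7, both targets of the signal that switches hepcidin on, and the iron transporter gene Slc39a14 fell with the model diet and was higher with quercetin.

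Hepcidin, made by hepatocytes, is the hormone that keeps iron out of the blood. It binds ferroportin, the product of Slc40a1 and the iron exporter of cells, and has it degraded. Hepatocytes read iron through transferrin and transferrin receptor 2 (Tfr2) and through bone morphogenetic proteins such as BMP6, which liver endothelial cells secrete, and SMAD proteins carry that signal to the hepcidin gene. Interleukin 6 and STAT3 form a separate, inflammatory route to the same gene. Inside cells, iron regulatory proteins bind hairpins called iron-responsive elements. A hairpin in the 5′ untranslated region blocks translation of ferritin and ferroportin when iron is scarce, and hairpins in the 3′ untranslated region protect transferrin receptor 1 (Tfrc) mRNA from decay. RNA levels therefore do not measure the ferritin or ferroportin protein.

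Both hepcidin genes lie on the minus strand of chromosome 7 of GRCm38.p6, Hamp at 30942368 to 30944029 and Hamp2 at 30922372 to 30924181 in RefSeq. In mouse, Hamp encodes the active hormone. The 250 bases before each start are shown because those of Hamp hold a BMP-responsive element and a STAT site, through which known inputs reach that gene. The windows are chr7:30944030-30944279 for Hamp and chr7:30924182-30924431 for Hamp2, 5′ to 3′ on the minus strand, from RefSeq. Capitals mark first the BMP-responsive element or the bases aligned to it, then the STAT site.
Hamp: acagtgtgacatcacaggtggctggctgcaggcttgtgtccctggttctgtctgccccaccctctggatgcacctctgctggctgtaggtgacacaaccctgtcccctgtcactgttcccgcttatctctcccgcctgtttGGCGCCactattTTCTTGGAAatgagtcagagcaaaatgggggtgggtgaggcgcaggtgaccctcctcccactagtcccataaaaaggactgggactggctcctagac
Hamp2: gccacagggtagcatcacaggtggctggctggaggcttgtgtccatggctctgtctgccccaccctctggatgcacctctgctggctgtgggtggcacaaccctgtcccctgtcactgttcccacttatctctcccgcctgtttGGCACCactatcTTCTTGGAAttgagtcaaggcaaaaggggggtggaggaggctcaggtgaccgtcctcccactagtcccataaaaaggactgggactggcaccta
Over 253 aligned columns the windows were identical at 227, or 89.7%. The BMP-responsive element GGCGCC of Hamp, 109 to 104 bases before its start, was aligned to GGCACC in Hamp2, the substitution G4A counted from 1 at the 5′ end of the element. The STAT site, searched as TTCNNNGAA on both strands, read the same in both genes and lay 97 to 89 bases before the start of Hamp and 94 to 86 bases before that of Hamp2. Of 32841 RefSeq promoter windows, 9.59% hold GGCGCC and 7.02% hold TTCNNNGAA.

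The iron-responsive hairpins of 4 members are shown because they are the known sites at which iron acts on these mRNAs. Each stretch of 29 bases comes from a GENCODE M21 transcript (GRCm38.p6) and was found by searching CNNNNNCAGTGN on the transcribed strand, with the loop in capitals. The first 3 lie in 5′ untranslated regions (chr19:9982732-9982760 on the plus strand, chr7:45459779-45459807 and chr1:45925465-45925493 on the minus strand), and that of Tfrc lies in the 3′ untranslated region (chr16:32631219-32631247 on the plus strand).
Fth1: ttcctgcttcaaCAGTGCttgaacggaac
Ftl1: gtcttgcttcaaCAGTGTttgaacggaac
Slc40a1: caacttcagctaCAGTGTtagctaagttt
Tfrc: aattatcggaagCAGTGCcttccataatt
Tfrc had 5 such matches in its 3′ untranslated region, of which the third and the fourth overlap, and Fth1 had 1 further match in its own. A match by letters alone is common, at 8.32% of 20064 genes in the 5′ and 31.4% of 20591 genes in the 3′ untranslated region.

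The 15 libraries held 15.85 to 17.58 M estimated counts and between 14615 and 14929 genes above 0. Levels below are counts relative to library size (CPM), with sizes scaled by TMM, and changes are log2 fold changes with their standard error from edgeR's quasi-likelihood test on 12658 genes. A gene passed at a Benjamini-Hochberg adjusted p under 0.05 over all of these genes, and all 9 iron genes passed the filter on low counts. Summed hepatocyte markers (12 genes, Alb among them) stood at 83460 to 133400 CPM in the 15 libraries. Kupffer cell, endothelial, erythroid, stellate and lymphocyte marker genes were also counted, with no gene of these lists at 0 in every library.

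Compared per transcript length, in deposited TPM averaged over the 15 libraries, Trf at 8398, Hamp at 7056, Ftl1 at 5348 and Fth1 at 1881 were among the most abundant liver transcripts, with ranks 20, 22, 28 and 59 of all genes in the table. Tfr2 at 194.5 TPM and Hamp2 at 167.0 TPM followed. Slc40a1 stood at 43.03 TPM, Tfrc at 4.265 TPM and Bmp6 at 1.489 TPM. The receptor with which hepatocytes sense iron, Tfr2, was thus 24.8 to 88.7 times as abundant as the uptake receptor Tfrc, depending on the library.

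**Figure D1:**
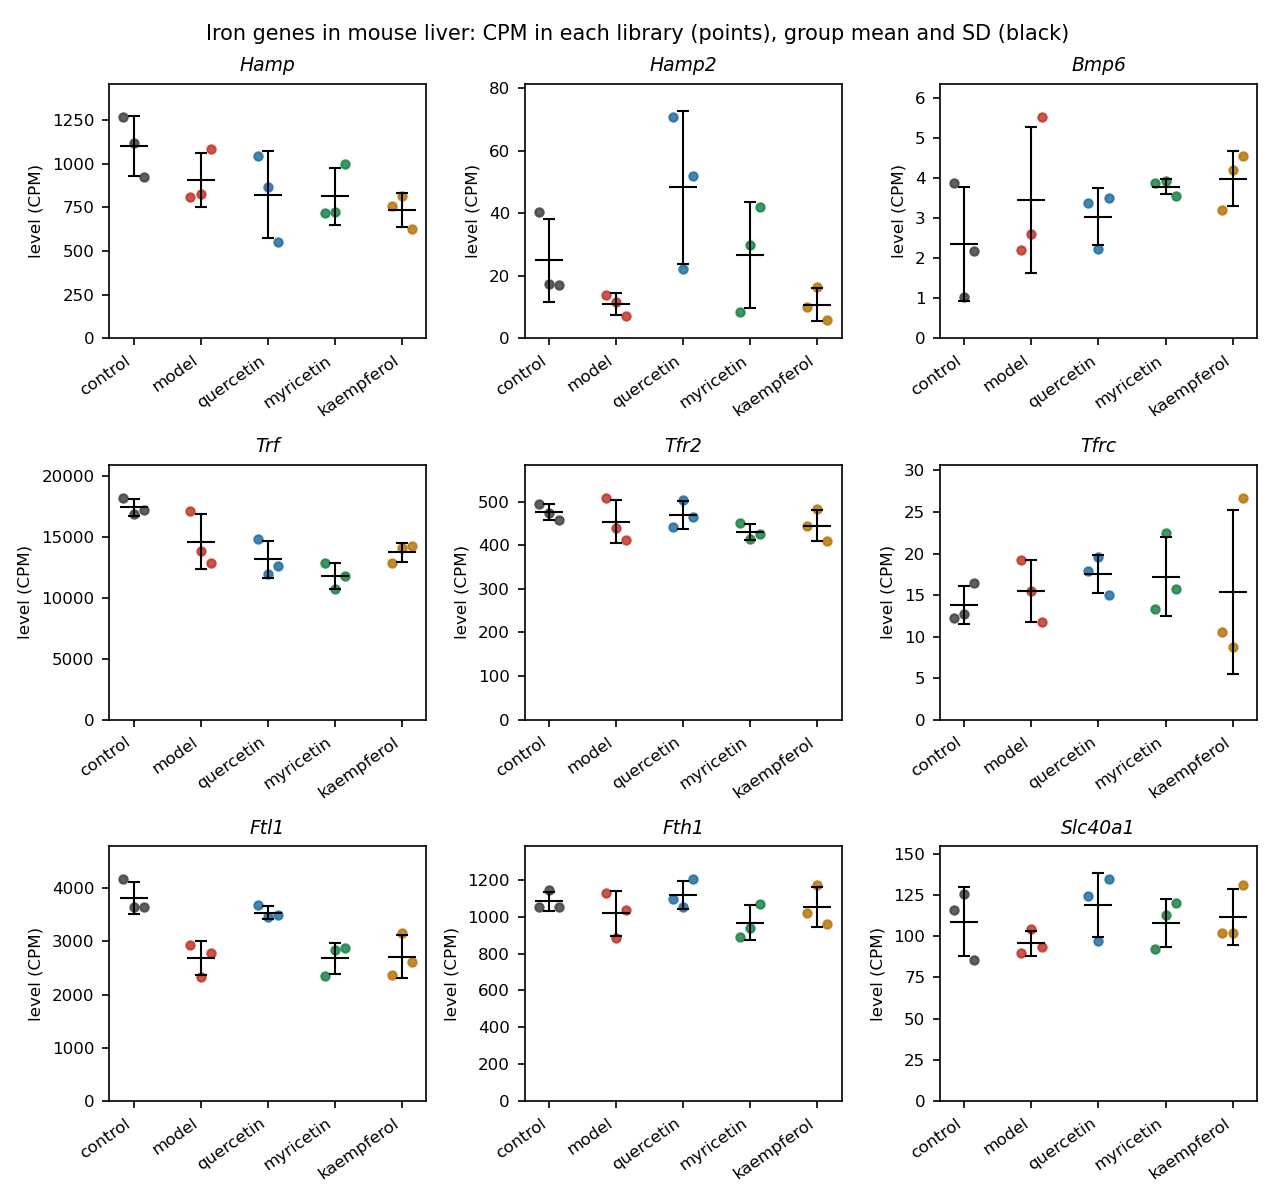
Level in CPM (vertical axes, starting at 0) of the 9 iron genes in each of the 15 libraries (points), by group (horizontal axes), with the group mean and SD in black (n = 3). Ftl1 separates the control and quercetin libraries (3449 to 4165) from the other libraries (2340 to 3151), and Hamp2 is highest with quercetin (22.2 to 70.92).

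The hormone gene Hamp stood at 1269, 1116 and 922.9 CPM in control replicates 1, 2 and 3 and at 807.9, 825.3 and 1082 CPM in model replicates 1, 2 and 5. Its levels were 1047, 865.3 and 553.6 CPM in quercetin replicates 2, 5 and 8, 719.2, 721.1 and 1001 CPM in myricetin replicates 5, 7 and 8, and 759.8, 815.4 and 625.7 CPM in kaempferol replicates 3, 5 and 8. The control mean was the highest (1103 ± 174, SD, n = 3) and the kaempferol mean the lowest (733.6 ± 97.6). Neighbouring groups in that order (control, model, quercetin, myricetin, kaempferol) all overlapped. In model against control Hamp differed by -0.28 ± 0.21 (95% interval -0.73 to 0.16, edgeR adjusted p = 0.463). All 12 high-fat libraries were below the control mean. The difference between the 4 high-fat groups and the control was -0.43 ± 0.16 (95% interval -0.78 to -0.09, edgeR adjusted p = 0.0803), which did not pass. It passed only when quercetin replicate 2 was left out (edgeR adjusted p = 0.0398).

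Hamp2, whose product has no established role in mouse iron balance, was more variable. It stood at 40.31, 17.46 and 17.08 CPM in control replicates 1, 2 and 3 and at 13.84, 11.75 and 7.048 CPM in model replicates 1, 2 and 5. With quercetin it stood at 70.92, 22.2 and 51.88 CPM in replicates 2, 5 and 8. The model libraries were below every control and every quercetin library. Myricetin gave 8.41, 29.73 and 41.94 CPM in replicates 5, 7 and 8, and kaempferol gave 9.906, 16.3 and 5.847 CPM in replicates 3, 5 and 8, so that both overlapped the model. Quercetin against the model differed by 2.15 ± 0.65, a 4.43-fold higher level (95% interval 0.71 to 3.59 on the log2 scale), with an edgeR adjusted p = 0.0742 that did not pass. It passed without myricetin replicate 5 (edgeR adjusted p = 0.0395) and with DESeq2 (adjusted p = 0.0128), and in the authors' deposited table it has a log2 fold change of 2.14 with a q value of 0.002804.

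As a share of all hepcidin transcripts by TPM, Hamp2 made up 1.29% to 2.6% in the control libraries and 0.547% to 1.41% in the model libraries. That share was 2.11% to 7.32% with quercetin, 0.975% to 3.4% with myricetin and 0.773% to 1.66% with kaempferol. Hamp therefore made up nearly all hepcidin RNA in every library. The deposited Hamp2 row spans 30916983 to 30926909 on the plus strand and joins the RefSeq mRNA with 1 noncoding RNA, and GENCODE M21 places the plus-strand lincRNA Gm44662 over Hamp2 and Hamp (30916983 to 30946824). The strand setting of the counting is not given in the sources used here, so reads of the hepcidin copy and of RNA from the opposite strand cannot be told apart in that row.

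Bmp6, the ligand that reports liver iron to hepatocytes, was scarce. It stood at 3.867, 1.031 and 2.174 CPM in the control replicates and at 2.205, 2.617 and 5.533 CPM in model replicates 1, 2 and 5, with 1 model library above all the others. Quercetin libraries ranged from 2.22 to 3.508 CPM, myricetin libraries from 3.562 to 3.92 CPM and kaempferol libraries from 3.21 to 4.542 CPM. No comparison passed. The high-fat groups differed from the control by 0.58 ± 0.32 (95% interval -0.10 to 1.27, edgeR adjusted p = 0.229), and by 1.14 with an edgeR adjusted p = 0.0371 without control replicate 1, the control library with the highest level.

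Trf, the gene of the protein that carries iron in plasma and delivers it to transferrin receptors, stood at 18170, 16870 and 17190 CPM in control replicates 1, 2 and 3. Model replicates 1, 2 and 5 had 17150, 13820 and 12820 CPM, so replicate 1 lay within the control range. Quercetin gave 11950 to 14840 CPM, myricetin 10720 to 12880 CPM and kaempferol 12820 to 14220 CPM. All 12 high-fat libraries were below the control mean, and 11 of them below every control library. Trf fell by 0.39 ± 0.10 on the log2 scale across the high-fat groups (0.763 of the control, edgeR adjusted p = 0.0177). The call was lost without control replicate 1, 2 or 3, with edgeR adjusted p-values of 0.0634, 0.0724 and 0.0695 at nearly the same size (-0.36, -0.41 and -0.40). In model against control alone the difference was -0.25 ± 0.13 (edgeR adjusted p = 0.282).

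The 2 transferrin receptor genes did not pass in any comparison. Tfr2, the iron sensor, stayed within 409.5 to 508.3 CPM over all 15 libraries. Its difference between model and control was -0.07 ± 0.10 (95% interval -0.29 to 0.15, edgeR adjusted p = 0.742). Tfrc, the uptake receptor, stood at 12.23 to 16.4 CPM in the control, 11.79 to 19.23 CPM in the model, 15.02 to 19.64 CPM with quercetin and 13.33 to 22.49 CPM with myricetin. Kaempferol libraries held both the lowest and the highest value, 8.786 CPM in replicate 5 and 26.68 CPM in replicate 8. The interval for Tfrc in model against control ran from -0.62 to 0.96 on the log2 scale.

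Ftl1 encodes the ferritin subunit that helps to lay down the iron core. It stood at 4165, 3652 and 3638 CPM in control replicates 1, 2 and 3, and at 2941, 2340 and 2782 CPM in model replicates 1, 2 and 5. Every model library was below every control library. Quercetin replicates 2, 5 and 8 had 3684, 3449 and 3495 CPM, above every model library and within or below the control range. Myricetin (2351, 2830 and 2872 CPM) and kaempferol (2367, 3151 and 2616 CPM) lay around the model values. In the order of means, control (3818 ± 301), quercetin (3542 ± 124), kaempferol (2711 ± 401), model (2688 ± 312) and myricetin (2684 ± 289) (SD, n = 3), quercetin and kaempferol were the only neighbours whose ranges did not overlap.

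Ftl1 fell by 0.51 ± 0.13 in the model on the log2 scale (95% interval of the fold 0.58 to 0.855, edgeR adjusted p = 0.0394). The call was lost whichever of control replicates 1, 2 and 3 or model replicates 1, 2 and 5 was left out, with edgeR adjusted p-values of 0.0737 to 0.141 and changes of -0.58 to -0.43. In the authors' deposited table the same comparison has a log2 fold change of -0.499 with a q value of 0.002244. Across the high-fat groups Ftl1 fell by 0.40 ± 0.10 (edgeR adjusted p = 0.0144), and the adjusted p was 0.0708 without control replicate 1 and 0.0555 without control replicate 2. Quercetin against the model differed by 0.40 ± 0.13 (a 1.32-fold higher level, edgeR adjusted p = 0.0778), which did not pass, while DESeq2 gave an adjusted p = 0.033 and the authors' deposited table a q value of 0.03387. The differences with myricetin (-0.00 ± 0.13, 95% interval -0.28 to 0.28) and kaempferol (0.01 ± 0.13, -0.27 to 0.29) did not pass. Ftl1 counts were not whole in any of the 15 libraries, so they are estimates. Mouse Ftl1 is known to have near-identical processed pseudogenes, and whether reads were shared with them was not tested, so its level is uncertain.

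Fth1, the ferritin subunit that oxidises iron, passed in no comparison. It stood at 1053 to 1143 CPM in the control, 883.9 to 1130 CPM in the model, 1052 to 1202 CPM with quercetin, 888.2 to 1071 CPM with myricetin and 962 to 1173 CPM with kaempferol. The difference between model and control was -0.09 ± 0.12 (95% interval -0.34 to 0.16, edgeR adjusted p = 0.701). The TPM ratio of light to heavy chain was 3.07 to 3.8 in the control libraries and 2.5 to 2.58 in the model libraries, with no overlap. It was 2.79 to 3.22 with quercetin, 2.54 to 2.9 with myricetin and 2.23 to 2.61 with kaempferol. The ratio was not tested.

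Genes of ribosomal proteins also fell in the model and rose with quercetin against the model. Of 37 ribosomal protein genes 7 fell and 0 rose in the model, where 4.46% of all genes passed (median log2 fold change -0.35, against -0.01 over all genes). In quercetin against the model 16 rose and 0 fell, where 7.82% of all genes passed (median 0.37, against 0.01). Their summed level was 9466 to 9865 CPM in the control, 7717 to 7935 CPM in the model, 9067 to 10920 CPM with quercetin, 7352 to 9372 CPM with myricetin and 7611 to 8926 CPM with kaempferol. Across the high-fat groups 4 of the 37 fell and 0 rose, against 16.3% of all genes (median -0.20, against 0.00). Across the 15 libraries the ribosomal protein gene Rpsa was among the genes most like Ftl1 (Pearson's r = 0.91). Myricetin replicate 8 had the 9372 CPM, within the quercetin range, with Ftl1 at 2872 CPM, within the model range. Values of that library alone cannot decide how these levels go together. The part of ribosomal protein genes in the Ftl1 result was not tested.

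**Figure D2:**
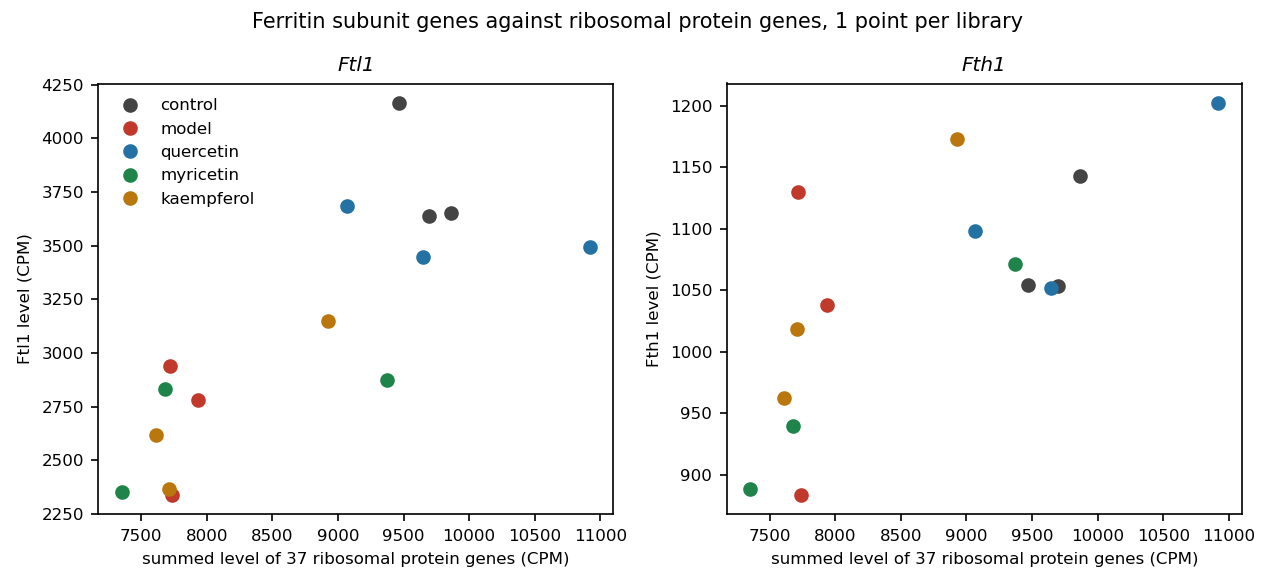
Level in CPM of Ftl1 (left) and Fth1 (right) against the summed CPM of 37 ribosomal protein genes, 1 point per library, coloured by group (neither axis starts at 0). The model libraries lie low on both axes for Ftl1 (2340 to 2941 at 7717 to 7935), and the control and quercetin libraries lie high (3449 to 4165 at 9067 to 10920).

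Slc40a1, the gene of the exporter that hepcidin degrades, did not pass in any comparison. It stood at 115.6, 125.3 and 85.41 CPM in the control replicates and at 89.65, 104.2 and 93.4 CPM in model replicates 1, 2 and 5, which lay within the control range. Quercetin libraries ranged from 96.94 to 134.4 CPM, myricetin libraries from 91.99 to 120.0 CPM and kaempferol libraries from 101.8 to 131.0 CPM. The largest difference was that of quercetin against the model, 0.31 ± 0.16 (95% interval -0.02 to 0.64, edgeR adjusted p = 0.25).

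Counted by comparison, 1 of the 9 genes passed in model against control (Ftl1), where 4.46% of all genes passed, and the ranges of 2 (Ftl1 and Hamp2, both lower) did not overlap, as for 30.0% of all genes. Across the high-fat groups 2 of 9 passed (Ftl1 and Trf, both lower), against 16.3% of all genes, and 0 of 9 had ranges without overlap, against 7.16%. In quercetin against the model 0 of 9 passed edgeR, against 7.82% of all genes. Under an unadjusted p of 0.05 were 2, against 23.1% of all genes, and 2 passed DESeq2 (Hamp2 and Ftl1). These 2 were also the ones whose ranges did not overlap, against 29.7% of all genes. In myricetin against the model 0 of 9 passed, against 0.395% of all genes, and 0 passed DESeq2, which passed 206 of all genes. Under an unadjusted p of 0.05 was 1 (Trf, -0.31 ± 0.13, edgeR adjusted p = 0.377), against 11.9% of all genes. With myricetin 0 of 9 had ranges without overlap, against 18.8%. In kaempferol against the model 0 of 9 passed, against 0.0395% of all genes, and 0 passed DESeq2, which passed 197 of all genes. Under an unadjusted p of 0.05 were 0, against 11.7% of all genes, and again 0 of 9 had ranges without overlap, against 18.9%. An edgeR test for any difference among the 5 groups passed for 1 of 9 (Ftl1, adjusted p = 0.0182), against 16.1% of all genes. These comparisons share the control or the model libraries. The median change of the 9 genes was -0.18 in model against control (-0.01 over all genes), -0.08 across the high-fat groups (0.00) and 0.13 with quercetin (0.01).

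**Figure D3:**
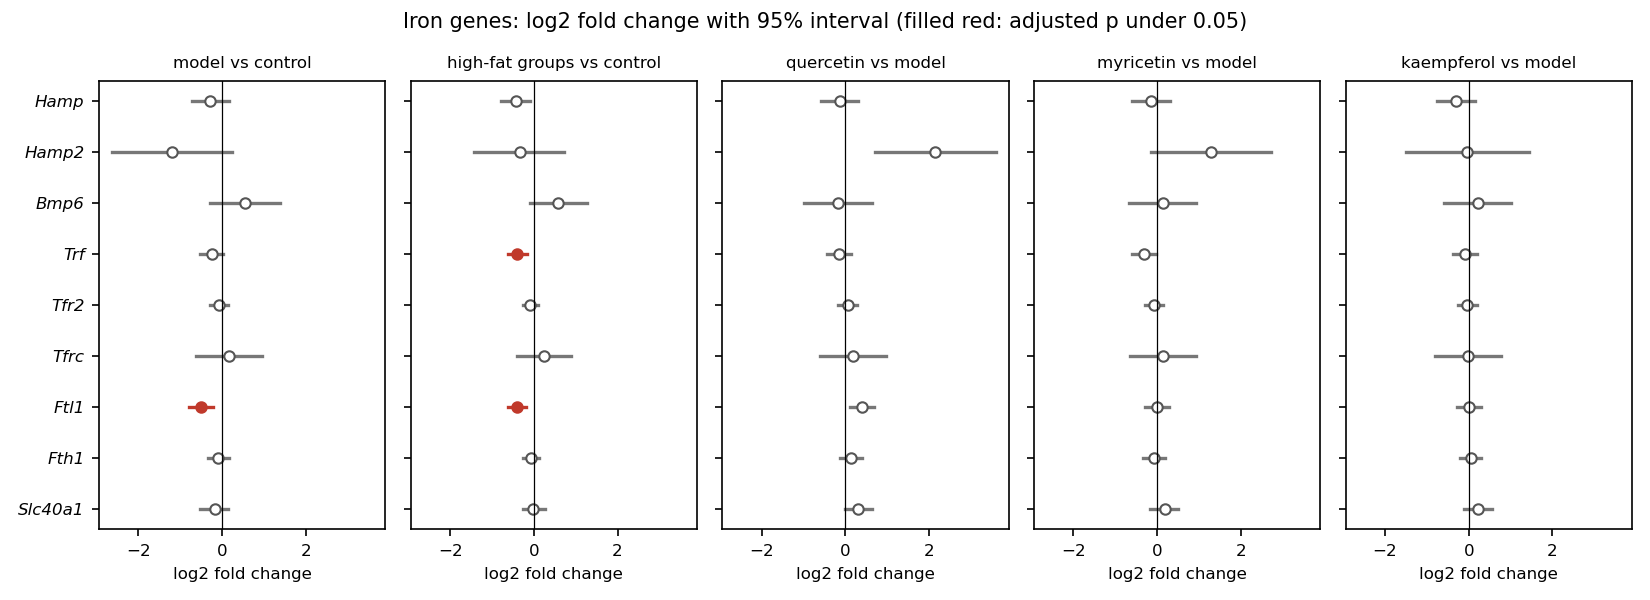
Log2 fold change (horizontal axis) of each iron gene with its 95% interval in 5 comparisons (panels), filled red where the edgeR adjusted p was under 0.05. The filled points are Ftl1 in model against control (-0.51) and Ftl1 and Trf in the high-fat groups against control (-0.40 and -0.39).

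The flavonoids were given at different doses, so they were not tested against each other. Side by side, the differences from the model for Hamp2 were 2.15 ± 0.65 with quercetin at 200 mg/kg, 1.29 ± 0.65 with myricetin at 75 mg/kg and -0.04 ± 0.67 with kaempferol at 100 mg/kg. For Hamp they were -0.14 ± 0.21, -0.15 ± 0.21 and -0.30 ± 0.21, none of which passed. All of these values rest on the same 3 model libraries.

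The wider iron pathway was read from a list of 78 further genes, of which 74 were tested. In model against control 1 rose and 5 fell, against 4.46% of all genes that passed. Across the high-fat groups 7 rose and 5 fell, which is a share of the 74 close to the 16.3% of all genes. In quercetin against the model 6 rose and 4 fell, against 7.82% of all genes. With myricetin and with kaempferol 0 of the 74 passed edgeR, against 0.395% and 0.0395% of all genes. DESeq2 passed 3 of the 74 in each, and 206 and 197 of all genes. Under an unadjusted edgeR p of 0.05 were 10 and 11 of the 74, against 11.9% and 11.7% of all genes. The smallest edgeR p-values were those of Hmox2 (0.52 ± 0.12, adjusted p = 0.068) and Bmp2 (0.87 ± 0.22, 0.0994) with myricetin and of Bmp2 (0.85 ± 0.22, 0.129) and Slc11a1 (0.95 ± 0.26, 0.156) with kaempferol. DESeq2 passed these 4 differences, with adjusted p-values of 0.0135, 0.0233, 0.0305 and 0.0493. Hmox2 also rose in quercetin against the model, where it passed edgeR in 13 of 15 omissions of 1 library (changes of 0.42 to 0.58). It stood at 31.23 to 39.25 CPM in the model. The ranges were 46.47 to 56.87 CPM with quercetin, 45.65 to 59.53 CPM with myricetin and 45.84 to 49.73 CPM with kaempferol. The median change over the 74 genes was -0.00 in model against control, 0.03 across the high-fat groups and 0.03 with quercetin, close to that of all genes.

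Among 19 tested genes of the BMP and SMAD route, 2 fell and 0 rose in the model, Id1 and Smad7, against 4.46% of all genes that passed. Id1, a transcription regulator that BMP signals induce, stood at 55.46, 26.67 and 42.36 CPM in the control and at 4.287, 6.397 and 10.67 CPM in model replicates 1, 2 and 5. Smad7, an inhibitor of the route that is itself induced by it, stood at 46.15, 22.93 and 29.01 CPM in the control and at 10.1, 10.53 and 13.5 CPM in the model. For both genes all model libraries were below all control libraries. Id1 fell by 2.55 ± 0.48 (edgeR adjusted p = 0.0173) and Smad7 by 1.52 ± 0.28 (0.0137) on the log2 scale. Leaving out control replicate 3 or model replicate 1 or 2 raised the adjusted p of Id1 to 0.0565, 0.0687 and 0.0562, and leaving out model replicate 1 raised that of Smad7 to 0.056.

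Against the control, Id1 and Smad7 were low in every high-fat library. Id1 lay between 4.287 and 21.43 CPM and Smad7 between 7.631 and 20.17 CPM in those 12 libraries, below the control ranges. Across the high-fat groups Id1 fell by 2.14 ± 0.32 (edgeR adjusted p = 0.00171) and Smad7 by 1.42 ± 0.20 (0.000814), and both passed whichever library was left out. Atoh8, a transcription factor induced by BMP signals, fell by 0.56 ± 0.15 (edgeR adjusted p = 0.0233), which was lost without control replicate 1 (0.131) or 3 (0.0926). Bmp2, a ligand of the route, rose by 1.03 ± 0.19 (edgeR adjusted p = 0.00239), from 4.251 to 5.578 CPM in the control libraries. It stood at 4.96 to 8.168 CPM in the model, which overlapped the control, at 6.881 to 8.337 CPM with quercetin, at 10.41 to 15.28 CPM with myricetin and at 9.242 to 15.73 CPM with kaempferol. In the model alone neither Bmp2 (0.56 ± 0.23, edgeR adjusted p = 0.162) nor Atoh8 (-0.32 ± 0.20, 0.381) passed. Smad6, another inhibitor that the route induces, was looked at after its values were seen and did not pass in the model (0.18 ± 0.24, edgeR adjusted p = 0.703) or across the high-fat groups (0.04 ± 0.19, 0.916).

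Endothelial markers also rose across the high-fat groups. Of 13, 10 rose and 0 fell across the high-fat groups, where 16.3% of all genes passed. Their summed level was 137.1 to 216.9 CPM in the control, 220.9 to 296.3 CPM in the model, 179.7 to 264.0 CPM with quercetin, 297.0 to 368.9 CPM with myricetin and 289.6 to 382.9 CPM with kaempferol, so that the quercetin libraries overlapped the control. In quercetin against the model 0 of the 13 passed, against 7.82% of all genes, and 1 had a positive log2 fold change (median -0.31). Mean Bmp2 was 6.993 CPM in the model and 7.637 CPM with quercetin. Of 12 hepatocyte markers 2 fell (Alb and Hnf4a) and 0 rose across the high-fat groups, a share close to the 16.3% of all genes. The summed level of the hepatocyte markers was 117800 to 133400 CPM in the control, 89540 to 111700 CPM in the model, 103600 to 120100 CPM with quercetin, 84630 to 101500 CPM with myricetin and 83460 to 109900 CPM with kaempferol. Again the quercetin libraries overlapped the control. The part of these cell type markers in the Bmp2, Id1, Smad7, Ftl1 and Trf results was not tested.

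The receptor side of the route was looked at after its values were seen. Hjv, the BMP co-receptor hemojuvelin, stood at 92.57 ± 3.72 CPM in the control, 86.06 ± 10.7 in the model and 60.7 ± 14.9 with quercetin (SD, n = 3). Its difference between quercetin and model, -0.50 ± 0.17, did not pass (edgeR adjusted p = 0.0881). Tmprss6, the protease that cuts hemojuvelin, and Hfe, the hemochromatosis protein gene, differed between model and control by -0.03 ± 0.10 and 0.14 ± 0.12, and neither passed. The BMP receptor genes Bmpr1a and Bmpr2 fell with quercetin against the model by 0.41 ± 0.11 (edgeR adjusted p = 0.0318) and 0.37 ± 0.10 (0.0288). Both calls were lost without model replicate 1 or 2 or quercetin replicate 2, with that of Bmpr1a also lost without quercetin replicate 5 and that of Bmpr2 without model replicate 5 or quercetin replicate 8 (edgeR adjusted p-values of 0.0592 to 0.113).

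**Figure D4:**
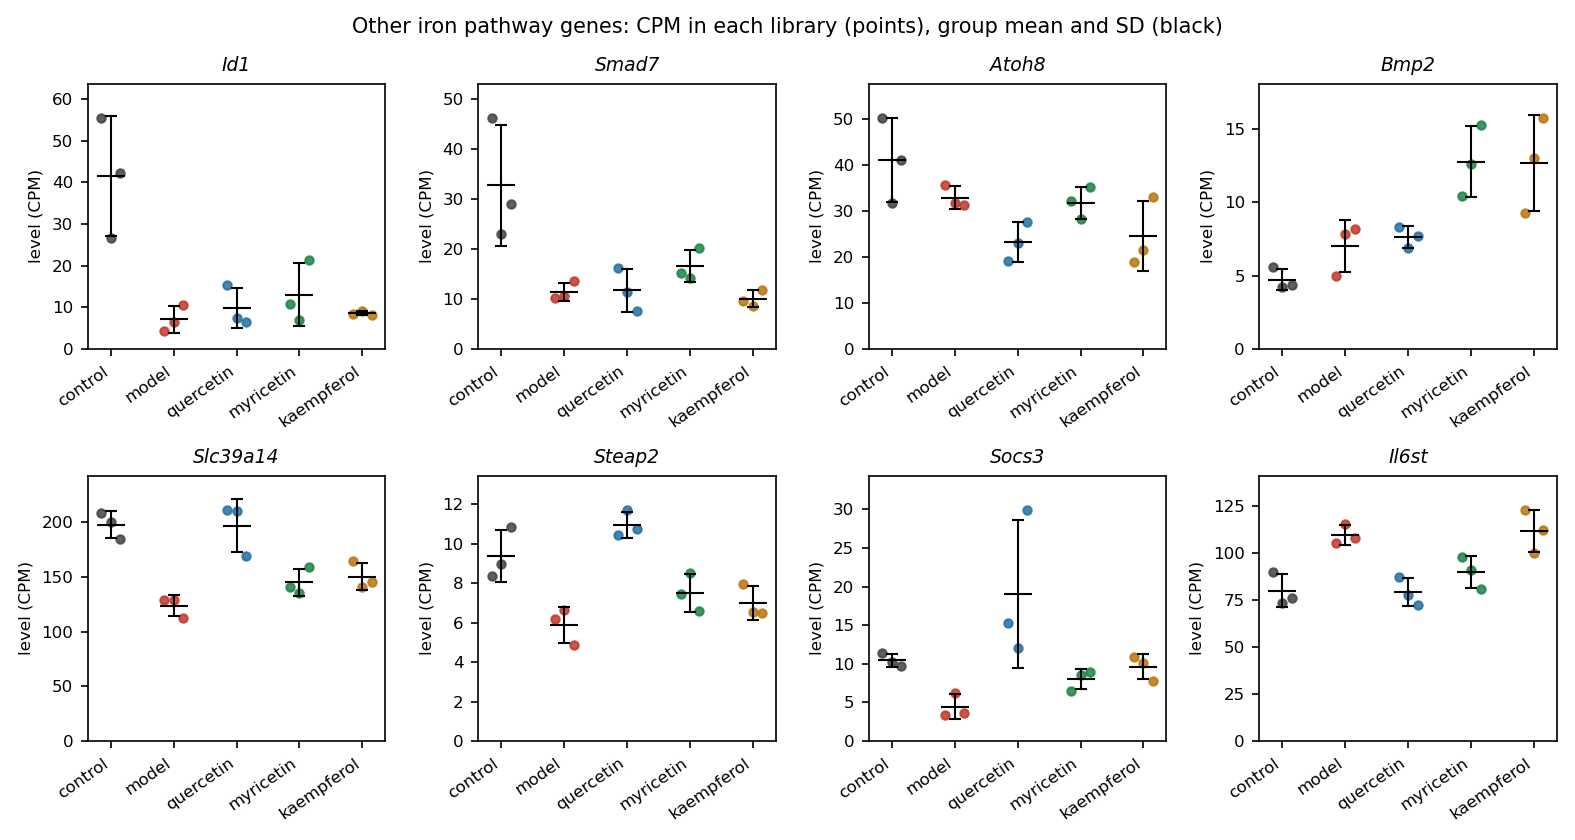
Level in CPM (vertical axes, starting at 0) of 8 further iron pathway genes in each library (points), with the group mean and SD in black (n = 3). Id1 and Smad7 are lower in all 12 high-fat libraries than in the 3 control libraries, and Slc39a14 is lowest in the model (112.6 to 129.4).

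Of the uptake and export genes, Slc39a14 and Steap2 fell in the model and were higher with quercetin. Slc39a14 encodes ZIP14, which brings iron not bound to transferrin into hepatocytes. It stood at 208.8, 200.0 and 184.9 CPM in the control, at 129.4, 128.8 and 112.6 CPM in model replicates 1, 2 and 5 and at 211.2, 210.4 and 169.3 CPM in quercetin replicates 2, 5 and 8. The model libraries were below all others, with myricetin at 135.1 to 159.1 CPM and kaempferol at 141.1 to 164.4 CPM. It fell by 0.68 ± 0.11 in the model (edgeR adjusted p = 0.00626) and rose by 0.67 ± 0.11 in quercetin against the model (0.00179), passing both times whichever library was left out. Across the high-fat groups it fell by 0.38 ± 0.08 (edgeR adjusted p = 0.00722).

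Steap2, a metalloreductase, stood at 8.367 to 10.87 CPM in the control, 4.874 to 6.63 CPM in the model and 10.45 to 11.71 CPM with quercetin. It fell by 0.67 ± 0.16 in the model (edgeR adjusted p = 0.0267) and rose by 0.89 ± 0.16 with quercetin (0.00284). Omitting control replicate 2 or 3, or model replicate 1 or 5, lost the fall, with edgeR adjusted p-values of 0.0748 to 0.14, and the rise passed whichever library was left out. Slc48a1, a heme transporter of lysosomes, rose with quercetin by 0.37 ± 0.08 (edgeR adjusted p = 0.0133, but 0.0666 without model replicate 1 and 0.0776 without model replicate 2). Its myricetin (45.83 to 46.25 CPM) and kaempferol (44.77 to 49.28 CPM) libraries also lay above every model library (36.41 to 42.16 CPM), though neither difference passed edgeR. Slc11a2, the iron transporter DMT1, fell with quercetin by 0.43 ± 0.13 (edgeR adjusted p = 0.0481), and that call was lost in 11 of 15 omissions of 1 library.

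Slc11a1, the iron transporter of macrophage phagosomes, rose across the high-fat groups by 1.13 ± 0.23 (edgeR adjusted p = 0.00526), from 2.547 to 4.573 CPM in the control to between 4.478 and 17.43 CPM. Blvra, the biliverdin reductase of heme breakdown, rose by 0.55 ± 0.11 (0.00362) and was higher in all 12 high-fat libraries than in any control library. Slc48a1 rose by 0.23 ± 0.07 (0.0329) there, but not without control replicate 1, 2 or 3 (edgeR adjusted p-values of 0.0968, 0.164 and 0.0772). The model did not share this rise, with a mean of 38.62 CPM against 38.7 CPM in the control. Mean Slc48a1 was 50.01 CPM with quercetin, 46.01 CPM with myricetin and 47.18 CPM with kaempferol. Kupffer cell markers moved with Slc11a1, with 10 of 13 risen and 0 fallen across the high-fat groups, against 16.3% of all genes. Their summed level was 135.9 to 224.2 CPM in the control, 290.6 to 405.1 CPM in the model, 387.9 to 437.5 CPM with quercetin, 383.8 to 538.5 CPM with myricetin and 487.7 to 1099 CPM with kaempferol. Their part in the result was not tested.

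In the cytokine route to hepcidin, 1 of 7 tested genes rose and 1 fell in the model, where 4.46% of all genes passed, and 1 rose and 1 fell in quercetin against the model, where 7.82% did. Il6st, the shared receptor subunit gp130, rose in the model by 0.46 ± 0.11 (edgeR adjusted p = 0.0292) and fell with quercetin against the model by 0.47 ± 0.11 (0.0169). Socs3, a feedback inhibitor of the route, stood at 9.753 to 11.41 CPM in the control, 3.429 to 6.281 CPM in the model and 15.23, 11.99 and 29.91 CPM in quercetin replicates 2, 5 and 8. Myricetin (6.522 to 8.906 CPM) and kaempferol (7.777 to 10.9 CPM) libraries also lay above every model library, though neither difference passed edgeR. Socs3 fell by 1.22 ± 0.32 in the model (edgeR adjusted p = 0.0455) and rose by 2.08 ± 0.31 with quercetin (0.00164), the rise passing whichever library was left out. The fall passed in only 4 of 15 omissions of 1 library, and without a control or model library its edgeR adjusted p was as high as 0.165 (without model replicate 5). Il6st lost its call in the model when control replicate 2 or 3, or any of the model libraries, was omitted (edgeR adjusted p-values of 0.0742 to 0.139), and with quercetin when model replicate 2, or quercetin replicate 5 or 8, was omitted (0.0554 to 0.0729). Of 16 acute phase genes, which the same cytokines induce, 0 passed edgeR in the model or with quercetin against the model. In the model 0 were under an unadjusted p of 0.05, against 21.7% of all genes, and 0 passed DESeq2. With quercetin 4 were under that p, against 23.1% of all genes, and 1 passed DESeq2. In kaempferol against the model 1 rose, Saa3, against 0.0395% of all genes, and 2 passed DESeq2, which passed 197 of all genes. There 7 of the 16 were under an unadjusted p of 0.05, against 11.7% of all genes. All 16 had a positive log2 fold change there, with a median of 0.42 (0.01 over all genes).

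Clock genes differed between the groups as well. Of 19 clock genes 7 rose and 6 fell in quercetin against the model, where 7.82% of all genes passed, with Dbp at 2.675 CPM in the model and 143.1 CPM with quercetin. In myricetin against the model 3 rose and 2 fell, against 0.395% of all genes, and across the high-fat groups 3 rose and 7 fell, against 16.3%. In kaempferol against the model 1 fell and 0 rose, against 0.0395% of all genes (median log2 fold change -0.63, against 0.01 over all genes). There 6 passed DESeq2, which passed 197 of all genes. In the edgeR test for any difference among the 5 groups 18 of the 19 passed, against 16.1% of all genes. In model against control 6 of the 19 were under an unadjusted p of 0.05, against 21.7% of all genes. There 4 passed DESeq2, which passed 967 of all genes. By edgeR 1 of the 19 passed in the model, a share close to the 4.46% of all genes. It was Nfil3, which rose by 0.87 ± 0.19 (edgeR adjusted p = 0.0228). Per1 stood at 36.71 to 53.2 CPM in the control and 5.335 to 14.39 CPM in the model, and Bhlhe40 at 128.7 to 142.1 CPM and 48.56 to 67.91 CPM. Neither range overlapped, though neither gene passed in the model (edgeR adjusted p = 0.0945 and 0.0751). The clock genes named here were picked after their values were seen. The labels give no time of collection, and the part of time of day was not tested in the model results for Ftl1, Id1, Smad7, Slc39a14 and Socs3 or in the quercetin results for Hamp2, Ftl1, Slc39a14 and Socs3.

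Among 7 genes of the iron regulatory protein system and oxygen sensing, 0 passed edgeR in the model (3 under an unadjusted p of 0.05 and 1 by DESeq2), with quercetin (1 and 1), with myricetin (1 and 1) or with kaempferol (2 and 0), and 1 rose across the high-fat groups, against 16.3% of all genes. It was Ireb2, the gene of an iron regulatory protein (0.31 ± 0.10, edgeR adjusted p = 0.0461). Of 13 genes of mitochondrial iron handling, 0 passed edgeR in the model (0 under an unadjusted p of 0.05), with quercetin (6), with myricetin (1), with kaempferol (0) or across the high-fat groups (1), and 0 passed DESeq2 in any of these. For both lists, the shares of all genes under that unadjusted p were 21.7% in the model, 23.1% with quercetin and 11.9% with myricetin. They were 11.7% with kaempferol and 31.3% across the high-fat groups. DESeq2 passed 967 of all genes in the model, 206 with myricetin and 197 with kaempferol. The mitochondrial gene that passed the test for any difference among groups, where 16.1% of all genes passed, was Fdx2, a ferredoxin of iron-sulfur cluster assembly (edgeR adjusted p = 0.0428). Ireb2, Fdx2 and Saa3 were named after their values were seen.

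Across the 15 libraries, the genes most like each member by Pearson's correlation of log2 CPM were read as a description, since the libraries share groups and scaling. Hamp was most like Fam187b (r = 0.856), which lies near it on chromosome 7 at 30973794 to 30989726, followed by Fam71e1 and Camk2n2. Leaving out control replicate 1 and quercetin replicate 8, the libraries farthest from the median of Hamp, lowered these to between 0.685 and 0.736. Ftl1 was most like Kng1 (0.917), the ribosomal protein gene Rpsa (0.910) and Atp5g1 (0.908), and Hamp2 was most like Snrpf (0.888), Nudt19 (0.884) and Atp6v1g1 (0.873).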

How the data were processed

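Liver RNA of 15 libraries was analysed from the deposited gene table. The submitters' processing notes name GRCm38.p6 as the build and list RSEM 1.3.1, DESeq2 1.4.5, Bowtie2 2.3.4.3 and HISAT2 2.1.0, without saying what each did. Per the file headers, the authors deposited a read count per gene and library, which is an expected count (5.37% of the values are not whole), and a TPM value, normalized for length and depth. For 4 comparisons the authors deposited a log2 fold change and a q-value, per the file headers. The 15 FPKM columns and the 15 columns of group averages, 30 in all, were not used.

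Expected counts were rounded, filtered with filterByExpr to 12658 genes, scaled with TMM factors and fitted with edgeR 4.0.16 (R 4.3.3, robust quasi-likelihood, 1 mean per group, 10 residual degrees of freedom). Tests were 2-sided with Benjamini-Hochberg adjustment over all genes tested. Standard errors were derived from the log2 fold change and its F statistic, so they and the 95% intervals are approximate. The common biological coefficient of variation was 0.155. The fit was tested on simulated data. DESeq2 1.42.0, RLE factors, no filter, only the groups compared, a replicate block and leaving out each library were the alternatives. Libraries of a group were checked for duplicates, and none was found. Sequences came from RefSeq promoter windows and GENCODE M21 transcripts. Promoter windows were matched by symbol for 7 of the 9 genes, and those of Trf and Slc40a1 were not used here.

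The 9 genes and all gene lists were chosen with earlier results of these data known. From the wider list, up to 4 passing genes per direction and comparison were named by smallest p, or the 2 smallest p-values where fewer than 2 passed, and a gene named in 1 comparison could be given in others. For each member the 3 most correlated genes were taken, of which those of Hamp, Hamp2 and Ftl1 are printed.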

Additional observations from a re-analysis of the deposited data

How the results depend on the processing

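At 15.85 to 17.58 M counts per library, the low levels of Bmp6 and Tfrc went with wide intervals. With RLE factors every change of the 9 genes kept its direction and its side of the threshold. Library numbers are shared between some groups, and the labels do not say what these numbers mean. Deviations of same-numbered libraries correlated by -0.238 to 0.098. Any pair of groups shares few numbers, so these correlations cannot tell whether the numbers pair the samples. With a replicate block 43 genes passed in model against control, 236 with quercetin, 5 with myricetin, 1 with kaempferol, 260 across the high-fat groups and 217 in the test for any difference, and 0 iron genes passed in model against control, across the high-fat groups or in that test. Wider iron genes also lost calls under the block, with edgeR adjusted p-values in the model of 0.135 (Il6st), 0.0632 (Slc39a14), 0.14 (Smad7), 0.156 (Id1), 0.174 (Steap2) and 0.187 (Socs3). With quercetin these were 0.166 (Slc48a1), 0.189 (Il6st), 0.223 (Bmpr2), 0.261 (Bmpr1a), 0.157 (Slc11a2) and 0.0668 (Hmox2), and across the high-fat groups 0.0971 (Bmp2), 0.105 (Blvra), 0.126 (Slc11a1), 0.398 (Slc48a1), 0.0996 (Smad7), 0.119 (Id1), 0.267 (Slc39a14, at -0.24) and 0.12 (Il6st). Under the block, differences that had not passed changed sign for Hamp (0.14), Tfrc (-0.24), Tfr2 (0.04) and Bmp6 (-0.09) with myricetin, Hamp2 (0.60), Tfr2 (0.06) and Trf (0.06) with kaempferol, and Hamp2 (0.06) across the high-fat groups. DESeq2 passed 967 genes in model against control, 206 with myricetin, 197 with kaempferol and 2 iron genes with quercetin. Fitting only the groups compared passed 125 genes with myricetin and 21 with kaempferol, and no filter passed 18 with kaempferol. The cause of these shifts was not tested.

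Leaving out 1 library at a time, 82 (without control replicate 2) to 919 (without control replicate 1) genes and 0 to 1 iron genes passed in model against control, 429 to 1121 and 0 to 1 with quercetin, 13 to 67 and 0 to 0 with myricetin, 0 to 39 and 0 to 0 with kaempferol, 675 to 2150 and 0 to 3 across the high-fat groups, and 1079 to 2082 and 1 to 2 in the test for any difference. Among the 9 genes, sign changes arose only for differences that had not passed. In model against control Tfrc ranged from -0.01 to 0.34 and Tfr2 from -0.16 to 0.00. With quercetin Hamp ranged from -0.35 to 0.08, Tfr2 from -0.02 to 0.14 and Bmp6 from -0.42 to 0.32. With myricetin Tfrc ranged from -0.09 to 0.33, Tfr2 from -0.14 to 0.01, Fth1 from -0.17 to 0.01, Ftl1 from -0.10 to 0.09 and Bmp6 from -0.10 to 0.65. With kaempferol Hamp2 ranged from -0.47 to 0.26, Tfrc from -0.68 to 0.26, Tfr2 from -0.10 to 0.06, Trf from -0.18 to 0.04, Fth1 from -0.06 to 0.13, Ftl1 from -0.11 to 0.10 and Bmp6 from -0.03 to 0.72. Across the high-fat groups Hamp2 ranged from -0.56 to 0.19 and Slc40a1 from -0.15 to 0.11.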

Other observations

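Kaempferol replicate 8 stood apart in some iron genes and in marker sums, which were picked after their values were seen. Hmox1, the enzyme that frees iron from heme, stood at 82.88 CPM there, against 28.72 and 18.53 CPM in kaempferol replicates 3 and 5 and 14.77 to 28.85 CPM in the 12 other libraries. The same library had the highest Slc11a1 (17.43 CPM), the highest Tfrc (26.68 CPM) and the highest summed Kupffer cell markers (1099 CPM, against 487.7 and 499.2 CPM in the other kaempferol libraries). It also had the highest summed lymphocyte (30.43 CPM), erythroid (994.8 CPM) and endothelial (382.9 CPM) markers of the 15 libraries, but not the highest stellate markers (242.9 CPM). Its Hamp level, 625.7 CPM, was the lowest of the kaempferol group. These are values of 1 library and were not tested.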
